A study of Mus musculus with 12 samples.

Results

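The change between 3 h and 6 h after partial hepatectomy was read from 6 of the 12 liver RNA-seq libraries, the 3 titled as 3 h and the 3 titled as 6 h after resection. All 6 are whole-liver samples from C57/BL6J wild-type mice after removal of 70% of the liver, so both groups carry the operation and differ by hours since it. Neither sham-operated nor 12 h livers entered the test, and 12 h levels are given below only as a description. Sex and age of the mice are not given in the sources used here. One of the 6 h libraries, replicate 3, has a time tag of 7 h and a title of 6 h, and the title set its group. Separate mice are not named for the 3 libraries of a time, so p-values measure the spread of these libraries, which may be technical. The labels also give no hour of day and no feeding state, so time after surgery and time of day cannot be told apart.

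After removal of most of the liver, the remaining lobes grow until the lost mass is restored. Before hepatocytes enter S phase they pass through a preparatory phase in which immediate early genes and cytokine signals act first, growth-related genes follow, and metabolic duties of the organ are carried by the remnant. Hepatocytes also make most plasma proteins, which are threaded into the endoplasmic reticulum (ER), folded and glycosylated there, and moved to the Golgi in coated vesicles.

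Libraries held 15573405 to 17199639 gene counts, and 10336 of 54532 genes reached 1 FPKM (fragments per kilobase of gene, scaled by library size) in 3 or more of the 6 libraries and were tested. The lowest share of a library's counts in these genes was 98.95%. In the edgeR quasi-likelihood test, 700 genes (6.77% of those tested) were higher at 6 h and 746 (7.22%) were lower at a Benjamini-Hochberg adjusted p under 0.05, 14% in either direction. By size, 154 were higher and 206 lower by 2-fold or more, and 27 were higher and 27 lower by 4-fold or more. The first principal component, 48.8% of the variance over tested genes, separated the 3 libraries of one time from the 3 of the other. FPKM of the 3 h and 6 h libraries did not overlap for 18% of tested genes in the higher direction and for 17.7% in the lower. Scaling by library totals in place of TMM shifted the median log2 difference of all genes from 0.01 to -0.12 and gave 433 higher and 1141 lower, so 27.5% of the calls were higher in place of 48.4%. Directions below are relative to TMM scaling. Each list count below stands against 6.77% higher and 7.22% lower over all tested genes. With 1 library left out fewer genes were called. Without 3 h replicate 1 there were 296 higher and 326 lower, and without 6 h replicate 2 there were 323 and 343. The counts were 426 and 514 without 3 h replicate 3, and 445 and 452 without 6 h replicate 3, the library with the tag of 7 h. All genes of the mitochondrial chromosome together took 5.94% to 6.37% of counts at 3 h and 6.26%, 6.91% and 8.49% in the 6 h replicates in order. Of the 13 listed mitochondrially encoded genes, none was called (edgeR; 3 higher at an unadjusted p under 0.05, 1 higher with DESeq2, 0 with limma). Hepatocyte markers identified the tissue: all 14 were tested, none was called (edgeR; 1 higher and 1 lower at an unadjusted p under 0.05, 1 lower with DESeq2, 0 with limma), and Alb (albumin) read 28070.3, 26246 and 31138 FPKM at 3 h and 22837, 27729 and 28248 FPKM at 6 h.

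**Figure D1:**
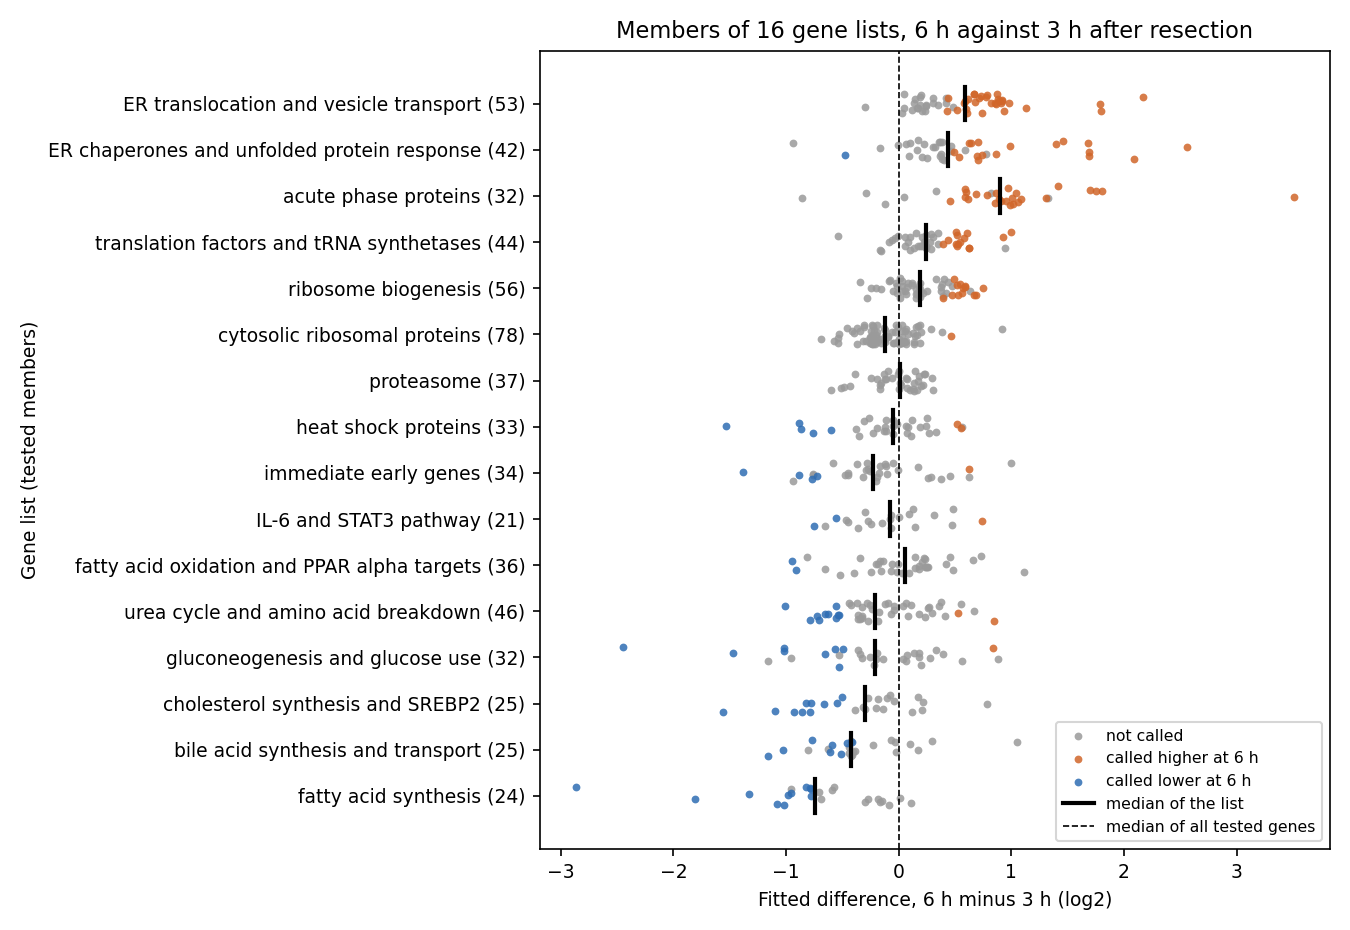
Fitted log2 differences (6 h minus 3 h) of the tested members of 16 gene lists, one point per gene, coloured by call, with the median of each list as a black bar and the median of all tested genes as a dashed line. Members of the 2 ER lists and of the acute phase list lie mostly to the right, with medians of 0.59, 0.43 and 0.90, while fatty acid synthesis lies to the left with a median of -0.75.

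Many genes of the machinery that brings proteins into the ER and carries them to the Golgi rose, and others were not called. Of 53 tested genes of ER translocation and vesicle transport, 31 were higher at 6 h, 0 were lower and 22 were not called, against 6.77% and 7.22% of all tested genes, and the median log2 difference was 0.59 against 0.01 over all genes. At an unadjusted p under 0.05, 1 member was lower in edgeR, and 0 were with DESeq2 or limma. The 31 included signal recognition particle and its receptor (Srp19, Srp68, Srp72, Srpr, Srprb), the Sec61 channel and its partners (Sec61a1, Sec61g, Ssr1, Ssr2, Ssr3), and signal peptidase (Sec11a, Sec11c, Spcs2, Spcs3). They also included COPII coat genes for export from the ER (Sec16a, Sec23b, Sec24c, Sec24d, Sec31a), COPI coat genes for retrieval (Arcn1, Copb1, Copb2, Copg1), and cargo receptors (Tmed2, Tmed3, Tmed9, Lman1, Surf4, Kdelr2). With one library left out, 21 to 28 members were called higher, 27 of them without 6 h replicate 3.

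Tmed3, a p24 family cargo receptor of early secretory vesicles, read 3.90, 2.57 and 2.76 FPKM at 3 h and 11.9, 18.0 and 11.5 FPKM at 6 h. Sec23b, an inner coat subunit of COPII vesicles, read 7.28, 6.05 and 8.02 FPKM at 3 h and 21.2, 28.0 and 24.1 FPKM at 6 h. Both genes were higher in all 3 later livers than in any earlier one, which for Tmed3 the rule that names the largest rises required. The fitted rises were log2 difference of 2.16 ± 0.23 SE with edgeR adjusted p = 0.00093, for Tmed3 and log2 difference of 1.78 ± 0.16 SE with edgeR adjusted p = 0.00036, for Sec23b. Srprb, the membrane-anchored beta subunit of the signal recognition particle receptor, went from 1.84, 1.87 and 2.32 FPKM to 5.59, 8.84 and 6.41 FPKM, a log2 difference of 1.79 ± 0.19 SE with edgeR adjusted p = 0.001. Srp19, a protein of the particle itself, read 5.13, 3.50 and 5.97 FPKM at 3 h and 8.84, 10.8 and 12.3 FPKM at 6 h, again with no overlap (log2 difference of 1.13 ± 0.20 SE with edgeR adjusted p = 0.0066). Among the members not called were the COPII subunits Sec23a, at 0.30, and Sec24a, at 0.03 on the log2 scale, and the Sec61 subunit Sec61b at 0.13.

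Genes outside these lists also rose. Arfgap3, which switches off ARF1 on the Golgi and so acts in COPI coat turnover, had the largest rise of the 4 described here, 1.03, 0.943 and 1.25 FPKM at 3 h and 8.70, 11.2 and 8.86 FPKM at 6 h (log2 difference of 3.16 ± 0.17 SE with edgeR adjusted p = 6.1e-05; GRCm38 chr15:83299739-83350247, minus strand). Gmppb, the GDP-mannose pyrophosphorylase that supplies mannose for glycosylation, read 3.28, 2.91 and 3.13 FPKM at 3 h and 13, 16.7 and 13.1 FPKM at 6 h (log2 difference of 2.20 ± 0.15 SE with edgeR adjusted p = 0.00014). Plpp5, a phospholipid phosphatase, read 3.23, 2.67 and 3.77 FPKM at 3 h and 13.2, 18.4 and 14.4 FPKM at 6 h (log2 difference of 2.25 ± 0.17 SE with edgeR adjusted p = 0.00019). Wfs1, an ER membrane protein involved in calcium balance, went from 2.02, 1.69 and 1.76 to 6.49, 8.71 and 8.09 FPKM (log2 difference of 2.09 ± 0.16 SE with edgeR adjusted p = 0.00021). None of these genes had a 3 h library that reached its lowest 6 h value, but the rule that named them required this. Gmppb overlaps Rnf123 on the other strand, and since the sources do not say whether counting used strand, reads of the 2 genes may not be separable.

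**Figure D2:**
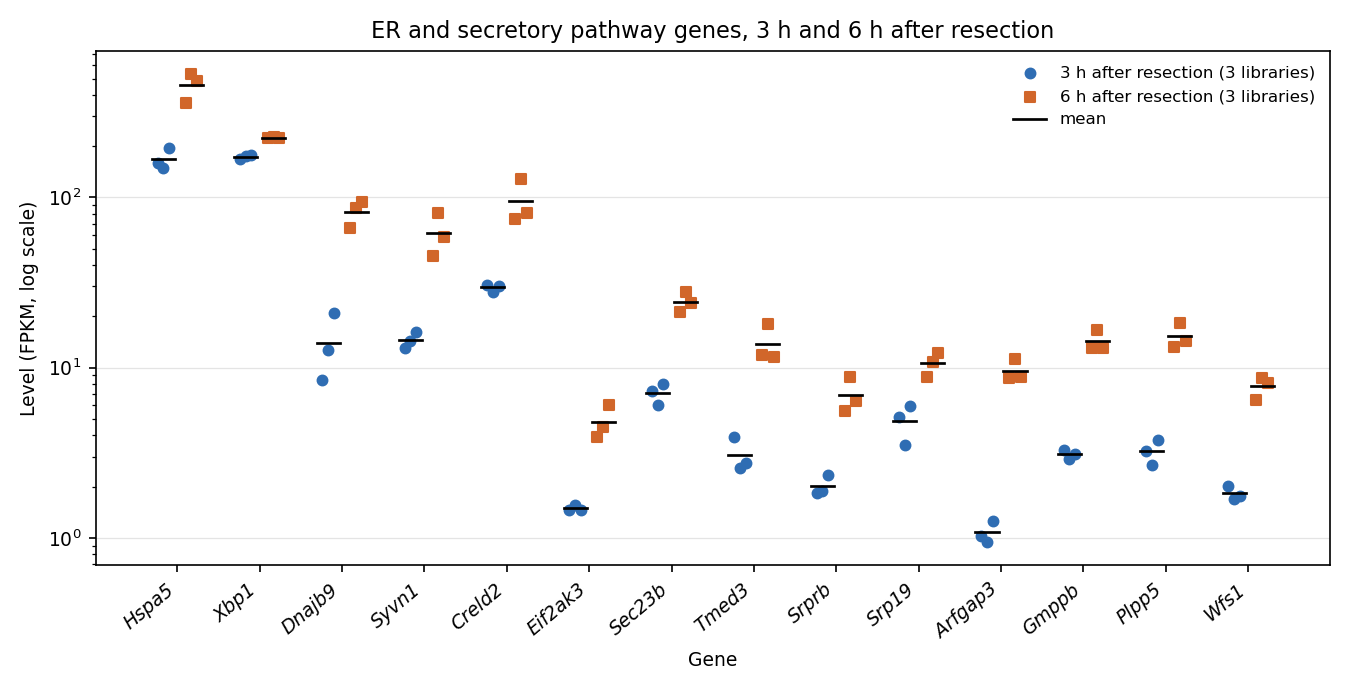
FPKM on a log axis in each of the 3 libraries at 3 h (circles) and the 3 at 6 h (squares) for 14 ER and secretory pathway genes, with means as black bars. The 2 times do not overlap for any gene drawn, and the gap is widest for Arfgap3 (1.07 against 9.59 FPKM on average) and narrowest for Xbp1, which was not called. For Arfgap3, Dnajb9, Gmppb, Plpp5, Tmed3 and Wfs1 the naming rule required lack of overlap.

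Inside the ER, chaperones and genes of the unfolded protein response, the programme that raises folding and disposal capacity, rose in part. Of 42 tested members, 17 were higher at 6 h and 1, Erp29, was lower, and that call was lost without any one library, with a median log2 difference of 0.43. Left-out libraries lowered the number higher to 11 (without 3 h replicate 1 or without 6 h replicate 2), and 12 remained without 6 h replicate 3. Hspa5 (BiP), the main ER Hsp70 chaperone, read 159, 148 and 195 FPKM at 3 h and 357, 531 and 484 FPKM at 6 h (log2 difference of 1.45 ± 0.18 SE with edgeR adjusted p = 0.0016). Its co-chaperone Dnajb9 had the largest rise of the list, with 8.49, 12.7 and 20.9 FPKM at 3 h and 66.3, 86.5 and 93.8 FPKM at 6 h (log2 difference of 2.56 ± 0.29 SE with edgeR adjusted p = 0.0013). Both genes lay higher in each 6 h library than in each 3 h library, which for Dnajb9 the rule that names the largest rises required. Dnajb9 varied more among the 3 h livers than Hspa5 did.

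Genes of disposal and signalling moved too. Syvn1 (HRD1), the ubiquitin ligase of ER-associated degradation, read 13.1, 14.3 and 16.3 FPKM at 3 h and 45.2, 80.9 and 58.4 FPKM at 6 h (log2 difference of 2.09 ± 0.21 SE with edgeR adjusted p = 0.00071). Creld2, a stress-inducible protein of the ER, read 30.7, 27.8 and 30.3 FPKM at 3 h and 75.1, 129 and 81.1 FPKM at 6 h (log2 difference of 1.69 ± 0.20 SE with edgeR adjusted p = 0.0015). Eif2ak3 (PERK), the ER kinase that slows translation under stress, rose from 1.46, 1.56 and 1.46 to 3.93, 4.50 and 6.02 FPKM (log2 difference of 1.69 ± 0.18 SE with edgeR adjusted p = 0.00093). The other members called higher included Manf, Hyou1, Hsp90b1, Pdia4, Dnajb11, Sel1l, Derl1 and the oligosaccharyltransferase subunit Stt3a, with log2 differences of 0.53 to 1.68.

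Some genes of the response were not called. Xbp1, the transcription factor activated by the sensor IRE1, read 169, 174 and 178 FPKM at 3 h and 224, 227 and 224 FPKM at 6 h. Its 2 groups did not overlap, but the log2 difference of 0.38 ± 0.11 SE with edgeR adjusted p = 0.053, missed the threshold. Ddit3 (CHOP), a factor of the PERK arm, also missed it at 2.27, 2.77 and 2.80 FPKM at 3 h and 3.40, 4.66 and 4.56 FPKM at 6 h (log2 difference of 0.69 ± 0.21 SE with edgeR adjusted p = 0.057), and it overlaps Mars, which has more reads. Among 16 tested ATF4 targets, 2 were higher and 2 lower. Asns, asparagine synthetase, read 1.31, 1.61 and 1.40 FPKM at 3 h and 4.44, 3.06 and 3.47 FPKM at 6 h (log2 difference of 1.35 ± 0.21 SE with edgeR adjusted p = 0.0045), while Shmt2, the mitochondrial serine hydroxymethyltransferase, read 57.5, 45.8 and 59.4 FPKM at 3 h and 37.2, 34.4 and 24.8 FPKM at 6 h (log2 difference of -0.75 ± 0.17 SE with edgeR adjusted p = 0.021). Trib3, a pseudokinase induced by ATF4, rose by 1.70 on the log2 scale, and Cth, cystathionine gamma-lyase, fell by 0.71. Some of these calls rested on the full set. Trib3 was not called without 3 h replicate 1 (1.51) or 6 h replicate 2 (1.48). Shmt2 was lost without 3 h replicate 1 (-0.70), 3 h replicate 3 (-0.69) or 6 h replicate 2 (-0.81). Cth was lost without 3 h replicate 1, 3 h replicate 3, 6 h replicate 1 or 6 h replicate 2, with log2 differences between -0.73 and -0.58.

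Promoters of the ER chaperone list were read because a known DNA element links part of this response to transcription. The ER stress element searched was CCAAT, 9 bases of any kind, and CCACG, on both strands, in the RefSeq promoter windows of GRCm38.p6, which run from 250 bases before to 50 bases after each gene's start. Of 32851 windows of that length, 39 (0.119%) held it, as did 0.200% of tested genes with a window. Of 34 tested list members with a promoter in the table, 9 held it: Creld2, Hsp90b1, Hspa5 and Syvn1, called higher, and Calr, Canx, Derl3, Dnajc3 and Pdia6, not called. None of 43 genes of translocation and vesicle transport with a window held it. A match describes letters only. Below are 60-base stretches, 5′ to 3′ on the gene's strand, of the 4 members that rose and of 2 that held the element and were not called, with the CCAAT and CCACG parts (or their reverse complements ATTGG and CGTGG) in capitals.
Hspa5 (chr2:34772004-34772063, plus strand, log2 difference 1.45): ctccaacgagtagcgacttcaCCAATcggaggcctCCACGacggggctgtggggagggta
Syvn1 (chr19:6046511-6046570, plus strand, 2.09): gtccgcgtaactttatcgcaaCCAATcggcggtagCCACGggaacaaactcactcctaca
Creld2 (chr15:88819499-88819558, plus strand, 1.69): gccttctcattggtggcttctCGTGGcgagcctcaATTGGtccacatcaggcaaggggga
Hsp90b1 (chr10:86705513-86705572, minus strand, 0.64, 1 of 2 copies shown): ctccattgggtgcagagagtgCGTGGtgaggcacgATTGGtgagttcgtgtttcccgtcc
Dnajc3 (chr14:118937806-118937865, plus strand, 0.36, not called): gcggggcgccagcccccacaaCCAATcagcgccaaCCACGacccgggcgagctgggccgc
Derl3 (chr10:75893221-75893280, plus strand, -0.94, not called): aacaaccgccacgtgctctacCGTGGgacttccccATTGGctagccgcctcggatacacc

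In Hspa5 the element printed above runs from 65 to 47 bases before the start, and in Syvn1 from 44 to 26. It reads in the gene's direction in Hspa5, Syvn1 and Dnajc3 and in the opposite direction in Creld2, Hsp90b1 and Derl3. The element was held by 4 of the 13 members called higher that have a window and by 9 of all 34 members with one. For the ATF4 targets, the C/EBP-ATF response element TGATGNAA (both strands) was found in the windows of 4 of 15 genes, Asns and Trib3 among them, against 2.66% of tested genes and 4.51% of all genes with a window.

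Plasma cells also express secretory genes strongly, so their markers were read beside these lists. Of 10 B and plasma cell markers, 2 were tested, and 0 were called higher and 1 lower. Their summed level was 8.23 to 18.3 FPKM at 3 h and 4.04 to 8.41 FPKM at 6 h. Mzb1 was at 0.08 to 0.15 FPKM at 3 h and 0 to 0.16 at 6 h. Outside the ER, heat shock genes gave more falls than rises: of 33 tested, 2 were higher (Dnajb4 and Chordc1) and 5 lower. Without 3 h replicate 1 or 6 h replicate 2, 0 were higher and 3 lower. Hsp90ab1, the constitutive cytosolic Hsp90, read 226, 236 and 208 FPKM at 3 h and 135, 125 and 135 FPKM at 6 h (log2 difference of -0.76 ± 0.12 SE with edgeR adjusted p = 0.005). Its co-chaperone Fkbp4 fell further, from 62.4, 50.3 and 41.2 to 20.3, 16.1 and 16.6 FPKM (log2 difference of -1.54 ± 0.18 SE with edgeR adjusted p = 0.0014), and the small heat shock protein Hspb1 from 21.0, 26.8 and 23.9 to 11.2, 13.3 and 14.1 FPKM (log2 difference of -0.88 ± 0.15 SE with edgeR adjusted p = 0.0063). All 3 were lower in each 6 h liver than in each 3 h liver. Of 37 proteasome genes none was called by edgeR, with a median of 0.02 (-0.11 when scaled by library totals). At an unadjusted p under 0.05, 2 were higher and 3 lower, and DESeq2 called 1 lower and limma 0.

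Acute phase proteins, the plasma proteins that hepatocytes raise in inflammation, were the list with the highest share of calls among those described here. Of 32 tested members, 25 were higher at 6 h and 0 lower, with a median log2 difference of 0.90, and 7 were not called. One member was lower at an unadjusted p under 0.05 and with DESeq2, and 0 with limma. They took 7.97% to 9.13% of all counts at 3 h and 13.7% to 15.4% at 6 h. The number called was 16 without 3 h replicate 1 and 22 without 6 h replicate 3. Apcs, serum amyloid P component, read 498, 613 and 429 FPKM at 3 h and 1831, 1608 and 1935 FPKM at 6 h (log2 difference of 1.8 ± 0.17 SE with edgeR adjusted p = 0.00051). Lcn2 (lipocalin 2), which binds bacterial iron carriers, read 187, 280.0 and 424 FPKM at 3 h and 619, 957 and 1290.0 FPKM at 6 h (log2 difference of 1.70 ± 0.32 SE with edgeR adjusted p = 0.0088). Neither gene overlapped between the times, although the 3 h livers were spread widely for Lcn2. The remaining calls included the 3 fibrinogen chains Fga, Fgb and Fgg (0.95, 0.91 and 0.98), haptoglobin Hp (0.89), haemopexin Hpx (0.78), Orm1 (1.06), Orm2 (1.42) and Serpina3n (1.31).

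Saa1 and Saa2, serum amyloid A apolipoproteins, read 1161, 812 and 1242 FPKM at 3 h and 2366, 1998 and 1918 FPKM at 6 h, and 1092, 751 and 1162 FPKM at 3 h and 2477, 1889 and 1789 FPKM at 6 h, respectively. Both rose by about the same amount (log2 difference of 0.97 ± 0.18 SE with edgeR adjusted p = 0.008; log2 difference of 1.04 ± 0.19 SE with edgeR adjusted p = 0.0089), but their sequences are close to identical and the reads of one may be counted to the other. Il1rn, the interleukin-1 receptor antagonist, was low and higher in each 6 h library than in each 3 h library, at 0.836, 1.79 and 1.26 FPKM at 3 h and 2.86, 4.47 and 5.65 FPKM at 6 h (log2 difference of 1.75 ± 0.30 SE with edgeR adjusted p = 0.0065). A2m, alpha-2-macroglobulin, read 0.632, 1.52 and 1.5 FPKM at 3 h and 4.58, 5.29 and 31.4 FPKM at 6 h (log2 difference of 3.51 ± 0.72 SE with edgeR adjusted p = 0.013). The size of its rise depended on 6 h replicate 3, without which it was 2.03 and still called. The call was lost without 3 h replicate 1 (3.20). Other plasma proteins gave few rises. Of 48 other secreted liver proteins, 1 was higher (Cpb2, 0.60, lost without 3 h replicate 1, 3 h replicate 3, 6 h replicate 2 or 6 h replicate 3 at 0.51 to 0.59) and 6 were lower. The number lower was 2 without any one of 3 h replicate 1, 3 h replicate 3, 6 h replicate 2 and 6 h replicate 3, and 11 without 3 h replicate 2. The lower ones included Klkb1, plasma prekallikrein (22, 22.6 and 31.9 FPKM at 3 h and 12.0, 11.2 and 9.06 FPKM at 6 h; log2 difference of -1.24 ± 0.17 SE with edgeR adjusted p = 0.0026), and Serpind1, heparin cofactor II (192, 176 and 191 FPKM at 3 h and 118, 117 and 111 FPKM at 6 h; log2 difference of -0.69 ± 0.12 SE with edgeR adjusted p = 0.006), which overlaps Pi4ka.

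**Figure D3:**
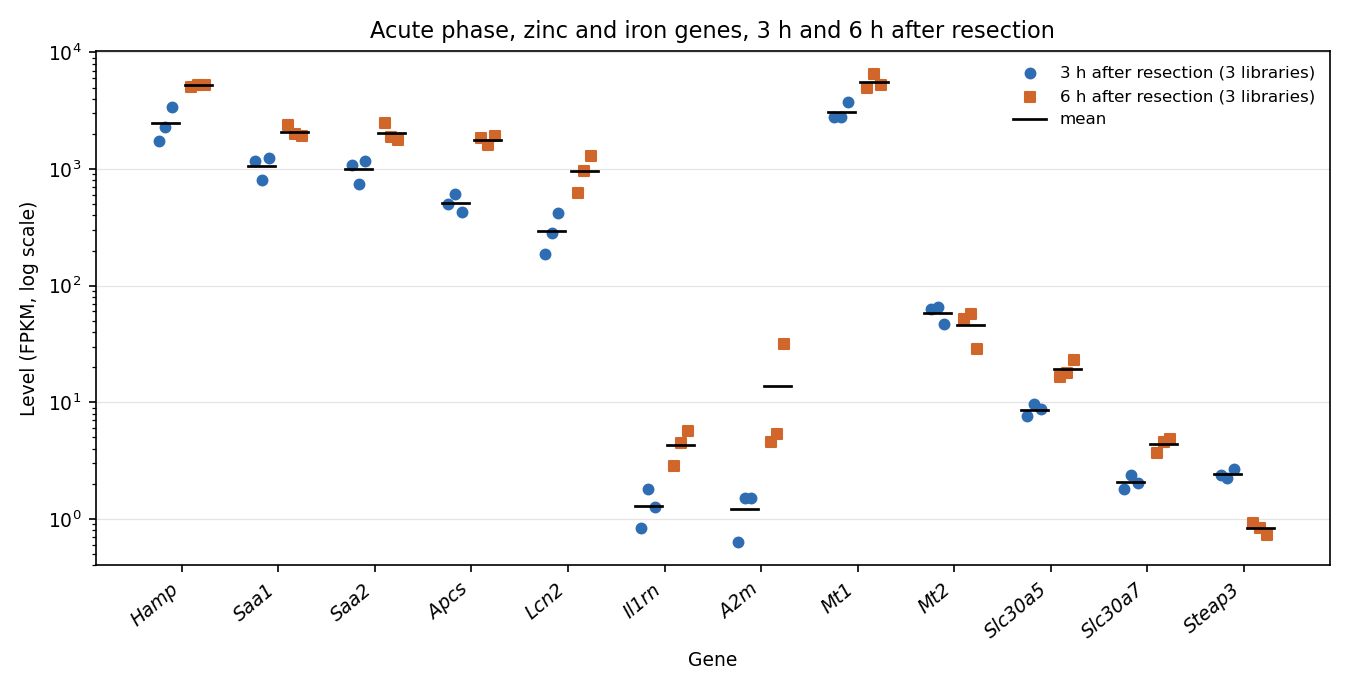
FPKM on a log axis for 12 acute phase, zinc and iron genes in the 3 libraries at 3 h (circles) and the 3 at 6 h (squares), with means as black bars. Apcs, Lcn2, Saa1, Saa2 and Il1rn are higher in each 6 h library, A2m has 1 library at 31.4 FPKM far above the others, Mt2 overlaps and Steap3 is lower.

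Of 30 tested genes of metal handling, 8 (26.7%) were higher and 3 (10%) lower, against 6.77% and 7.22% of all tested genes. Hamp, which encodes hepcidin, the hormone that blocks iron export, read 1735, 2287 and 3389.7 FPKM at 3 h and 5075, 5275 and 5279.8 FPKM at 6 h (log2 difference of 1.09 ± 0.21 SE with edgeR adjusted p = 0.01). The zinc transporters Slc30a5 and Slc30a7, which load the secretory pathway, rose from 7.57, 9.63 and 8.78 to 16.3, 17.9 and 23.1 FPKM and from 1.81, 2.39 and 2.04 to 3.64, 4.55 and 4.88 FPKM (log2 difference of 1.15 ± 0.16 SE with edgeR adjusted p = 0.0029, and log2 difference of 1.07 ± 0.15 SE with edgeR adjusted p = 0.003). Steap3, a ferrireductase of endosomes, fell from 2.35, 2.22 and 2.69 to 0.922, 0.84 and 0.722 FPKM (log2 difference of -1.54 ± 0.18 SE with edgeR adjusted p = 0.0013). Mt1, a zinc-binding metallothionein, read 2771, 2769.9 and 3758 FPKM at 3 h and 4989, 6516 and 5286 FPKM at 6 h (log2 difference of 0.86 ± 0.17 SE with edgeR adjusted p = 0.011), a call lost without 3 h replicate 1 (0.79). Mt2 was far lower in these counts, at 63.3, 65.3 and 46.7 FPKM at 3 h and 52.1, 57.3 and 28.8 FPKM at 6 h, and was not called (log2 difference -0.34). These 2 genes are similar in sequence and Mt2 overlaps an antisense gene, so their relative level is uncertain. Without 6 h replicate 3, and without either 3 h replicate 1, 3 h replicate 3 or 6 h replicate 2, 5 members were higher, and without 3 h replicate 1 only 1 was lower.

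Genes of the cytokine signals that act on acute phase genes were read beside them. Of 21 tested genes of the IL-6 and STAT3 pathway, 1 was higher (Osmr) and 2 lower (Cebpb and Il11ra1), and the median was -0.08. Il11ra1 overlaps several genes, and its call was lost without 3 h replicate 1, 6 h replicate 1, 6 h replicate 2 or 6 h replicate 3, at -0.59 to -0.46. Socs3, the feedback inhibitor of STAT3, read 37.0, 32.5 and 31.2 FPKM at 3 h and 58.7, 43.1 and 38.6 FPKM at 6 h, without overlap but short of the threshold (log2 difference of 0.48 ± 0.17 SE with edgeR adjusted p = 0.089). Cebpb, a C/EBP transcription factor of the acute phase, was lower in each 6 h liver (171, 204 and 203 FPKM at 3 h and 133, 109 and 99.7 FPKM at 6 h; log2 difference of -0.75 ± 0.15 SE with edgeR adjusted p = 0.01). Osmr, the oncostatin M receptor chain, rose by 0.74 on the log2 scale, a call lost without 3 h replicate 1 (0.62), 3 h replicate 3 (0.70), 6 h replicate 2 (0.76) or 6 h replicate 3 (0.57). Il6 itself had 13 counts over the 3 h livers and 4 over the 6 h livers, too few to test. Of 23 NF-kB and cytokine genes 0 were higher and 3 lower (Ccl24, -1.60, Il18, -0.73, and Ccl9, -0.52). At an unadjusted p under 0.05, 2 were higher, and with DESeq2 or limma 0 were. Of those 3, 0 were called without 6 h replicate 1 or 6 h replicate 2 and 1 without 3 h replicate 1. Ccl24 was then at -1.47 without 6 h replicate 1 and -1.70 without 6 h replicate 2. Il18 was lost without each library in turn, at -0.83 to -0.66, and Ccl9 without each but 3 h replicate 2, at -0.57 to -0.41. The interleukin-1 receptor Il1r1 overlapped between the times at 73.0, 102 and 105 FPKM at 3 h and 93.9, 103 and 150.5 FPKM at 6 h (log2 difference 0.32).

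Among 34 immediate early genes, the first wave after resection, 1 was higher, 4 were lower and 29 were not called, with a median of -0.23. The 1 higher was Btg2 (0.62), called only without 3 h replicate 2 among the fits with a library left out (0.41 to 0.72). The number lower was 2 without 3 h replicate 2, 6 h replicate 2 or 6 h replicate 3. Dusp1, the phosphatase that ends MAP kinase signals, gave the clearest fall, 15.4, 14.2 and 13.1 FPKM at 3 h and 4.66, 5.39 and 6.33 FPKM at 6 h (log2 difference of -1.38 ± 0.15 SE with edgeR adjusted p = 0.001), with no overlap. Maff, a small basic leucine zipper factor, fell from 2.90, 2.95 and 3.41 to 1.57, 1.70 and 1.70 FPKM (log2 difference of -0.89 ± 0.19 SE with edgeR adjusted p = 0.014). Myc read 3.79, 4.87 and 4.77 FPKM at 3 h and 3.08, 2.56 and 2.20 FPKM at 6 h (log2 difference of -0.77 ± 0.19 SE with edgeR adjusted p = 0.026), and its call was lost without 3 h replicate 2 (-0.70), 3 h replicate 3 (-0.74), 6 h replicate 2 (-0.76) or 6 h replicate 3 (-0.67). The AP-1 genes were not called: Jun read 16.6, 21.2 and 16.3 FPKM at 3 h and 15.6, 15.0 and 13.7 FPKM at 6 h, and Junb 109.6, 68.5 and 73.7 FPKM at 3 h and 78.5, 67.6 and 62.0 FPKM at 6 h. Fos was at 8.63 FPKM in 3 h replicate 1 and at 1.3 to 3.35 FPKM in the other 5 livers, so its log2 difference of -0.76 became 0.59 without that library. Atf3 overlapped between the times (1.86, 2.20 and 1.26 FPKM at 3 h and 1.60, 1.45 and 1.85 FPKM at 6 h).

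Some genes that make ribosomes and charge tRNA rose. Of 56 tested ribosome biogenesis genes, 13 were higher, 0 lower and 43 not called, with a median of 0.19. Of 44 translation factors and tRNA synthetases, 14 were higher, 0 lower and 30 not called, with a median of 0.24. Scaled by library totals, 6 and 7 were higher, with medians of 0.06 and 0.12, and in the fit on all 12 libraries 7 and 7 were. In each of these 2 lists 1 member was lower at an unadjusted p under 0.05 and 0 with DESeq2 or limma. Of 78 cytosolic ribosomal protein genes, 1 (Rpl3, 0.46) was higher and 0 lower, and the median was -0.12 (-0.25 when scaled by library totals). For these genes 6 were lower at an unadjusted p under 0.05, 3 with DESeq2 and 0 with limma, and edgeR called 9 lower without 3 h replicate 2. Pno1, an assembly factor of the small ribosomal subunit, read 14.5, 15.4 and 15.5 FPKM at 3 h and 21.9, 26.2 and 24.1 FPKM at 6 h (log2 difference of 0.67 ± 0.12 SE with edgeR adjusted p = 0.0065) and overlaps Wdr92. Ltv1, another such factor, rose from 7.08, 10.4 and 9.29 to 14.1, 14.9 and 15.6 FPKM (log2 difference of 0.75 ± 0.15 SE with edgeR adjusted p = 0.012). The arginyl-tRNA synthetase Rars rose from 9.51, 10.3 and 11.1 to 18.2, 21.3 and 21.9 FPKM (log2 difference of 1.0 ± 0.12 SE with edgeR adjusted p = 0.0016). Wars, its tryptophan counterpart, read 7.05, 6.48 and 5.98 FPKM at 3 h and 10.4, 14.2 and 12.2 FPKM at 6 h (log2 difference of 0.92 ± 0.14 SE with edgeR adjusted p = 0.0044). Left-out libraries lowered both counts. Ribosome biogenesis had 3 called without 3 h replicate 1, 6 without 6 h replicate 2 and 7 without 3 h replicate 2 or 6 h replicate 1. Translation had 3 called without 3 h replicate 1, 5 without 6 h replicate 2 and 8 without any one of 3 h replicate 2, 3 h replicate 3 and 6 h replicate 3. Nop58, a box C/D snoRNP core protein, rose by 0.57, a call lost without 3 h replicate 1 (0.44), 3 h replicate 2 (0.61), 6 h replicate 2 (0.58) or 6 h replicate 3 (0.46). Rpl3 lost its call without any one library other than 6 h replicate 3, at 0.42 to 0.53. The E-box CACGTG (palindromic), which MYC and other factors bind, was in the windows of 11 of 50 ribosome biogenesis genes (22%) against 12.15% of tested genes and 8.09% of all genes with a window.

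Nucleotide and polyamine synthesis had 4 higher and 2 lower of 27 tested, against 6.77% and 7.22% of all tested genes (2 higher without 3 h replicate 1, 1 without 6 h replicate 2, and 1 lower without 3 h replicate 1, 3 h replicate 3, 6 h replicate 2 or 6 h replicate 3). Srm, spermidine synthase, was higher in each 6 h library than in each 3 h library (10.6, 10.6 and 10.2 FPKM at 3 h and 20.2, 23.7 and 15.7 FPKM at 6 h; log2 difference of 0.93 ± 0.16 SE with edgeR adjusted p = 0.0065), and Paox, which breaks polyamines down, fell (6.89, 4.48 and 4.81 FPKM at 3 h and 2.95, 2.41 and 2.57 FPKM at 6 h; log2 difference of -1.03 ± 0.19 SE with edgeR adjusted p = 0.0079), although Paox overlaps the more abundant Echs1. Odc1, the first enzyme of polyamine synthesis, overlapped between the times (19.9, 24.0 and 19.4 FPKM at 3 h and 28.1, 22.5 and 23.2 FPKM at 6 h). Among 17 tested regulators of G1 to S transition, 1 (Ccng1, 0.62) was higher, 5.88% against 6.77% of all tested genes. None was lower, against 7.22% of all tested genes. Ccng1 lost its call without 3 h replicate 1 (0.64), 3 h replicate 2 (0.57), 6 h replicate 2 (0.62) or 6 h replicate 3 (0.49). Ccnd1, cyclin D1, was at 6.27, 8.03 and 6.34 FPKM at 3 h and 12.5, 6.34 and 7.94 FPKM at 6 h, high in 6 h replicate 1 only, and was not called. Cdkn1a, the p21 inhibitor, read 48.1, 67.0 and 69.8 FPKM at 3 h and 55.8, 54.0 and 53.6 FPKM at 6 h. Against the same shares of all genes, of 38 DNA replication genes 18 were expressed enough to test, 0 were higher and 2 (11.1%) were lower. They were Rrm2 (-1.17), lost without 3 h replicate 1, 3 h replicate 3, 6 h replicate 1 or 6 h replicate 2 (-1.11 to -1.02), and Rpa1 (-0.81), lost without 3 h replicate 1 (-0.66) or 6 h replicate 2 (-0.67). At an unadjusted p under 0.05, 1 was higher, and 0 were with DESeq2 or limma. Mcm5 was at 0.37 to 0.83 FPKM at 3 h and 0.29 to 0.44 at 6 h.

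Fatty acid synthesis was the list with the lowest median among the pathway lists described here. Of 24 tested members, 11 were lower at 6 h and 0 higher, against 7.22% and 6.77% of all genes, and the median log2 difference was -0.75. None was higher at an unadjusted p under 0.05 in edgeR, and 0 were with DESeq2 or limma. The number lower was 7 without 3 h replicate 1 or 6 h replicate 2 and 8 without 6 h replicate 3. Thrsp (Spot 14), a lipogenic regulator that insulin, sugar and thyroid hormone induce, fell most, 411, 177 and 199.6 FPKM at 3 h and 33.9, 20.8 and 53.3 FPKM at 6 h (log2 difference of -2.87 ± 0.40 SE with edgeR adjusted p = 0.0026). Acly, which makes cytosolic acetyl-CoA from citrate, read 84.1, 37.6 and 38.7 FPKM at 3 h and 17.9, 14.1 and 13.7 FPKM at 6 h (log2 difference of -1.81 ± 0.30 SE with edgeR adjusted p = 0.0056). In both genes 3 h replicate 1 was far above the other 3 h livers. The lowest 3 h liver was above every 6 h liver in both, which for Thrsp the rule that names the largest falls required. Gpam, the first acyltransferase of triglyceride synthesis, read 22.9, 22.8 and 19.3 FPKM at 3 h and 11, 7.98 and 6.92 FPKM at 6 h (log2 difference of -1.33 ± 0.18 SE with edgeR adjusted p = 0.0023). Srebf1, the transcription factor of this programme, fell from 13.9, 11.5 and 9.58 to 6.43, 5.98 and 4.09 FPKM (log2 difference of -1.08 ± 0.20 SE with edgeR adjusted p = 0.0078) and overlaps Rai1. Also lower were Acss2, Mlxipl (the sugar-sensing factor ChREBP), Fads1, Fads2, Elovl3, Dgat2 and Pklr, at -0.78 to -1.02, of which Pklr was lost without 3 h replicate 1, 6 h replicate 2 or 6 h replicate 3. Fatty acid oxidation gave few calls: of 36 tested genes 0 were higher and 2 lower (Acaa1b and Ppara), with 1 higher at an unadjusted p under 0.05 and 0 with DESeq2 or limma. Acaa1b (-0.94) was lost without 6 h replicate 2 (-0.88), and Ppara is described below. The list's median was 0.06 (-0.06 when scaled by library totals).

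Several genes of glucose uptake and use fell. Of 32 tested genes of gluconeogenesis and glucose use, 8 were lower and 1, Ldha, was higher. Slc2a2, the hepatocyte glucose transporter, read 45.7, 36.0 and 40.5 FPKM at 3 h and 21.2, 19.6 and 19.5 FPKM at 6 h (log2 difference of -1.02 ± 0.13 SE with edgeR adjusted p = 0.0022). Ppp1r3b, which directs a phosphatase to glycogen, fell from 35.6, 18.8 and 21.8 to 8.88, 8.91 and 9.67 FPKM (log2 difference of -1.47 ± 0.22 SE with edgeR adjusted p = 0.0039). The 2 times did not overlap for either gene. Gluconeogenic Pck1 was not called, 796, 705 and 768 FPKM at 3 h and 963, 778 and 749 FPKM at 6 h (log2 difference 0.14, edgeR adjusted p = 0.55). Igfbp1, which insulin represses, narrowly missed the threshold (472, 643 and 439 FPKM at 3 h and 689, 778 and 828 FPKM at 6 h; log2 difference of 0.56 ± 0.17 SE with edgeR adjusted p = 0.053). Ldha rose by 0.84 and lost its call without 3 h replicate 1 (0.73) or 6 h replicate 2 (0.76). The number of genes lower was 3 without 3 h replicate 1, 6 h replicate 2 or 6 h replicate 3 and 4 without 6 h replicate 1.

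**Figure D4:**
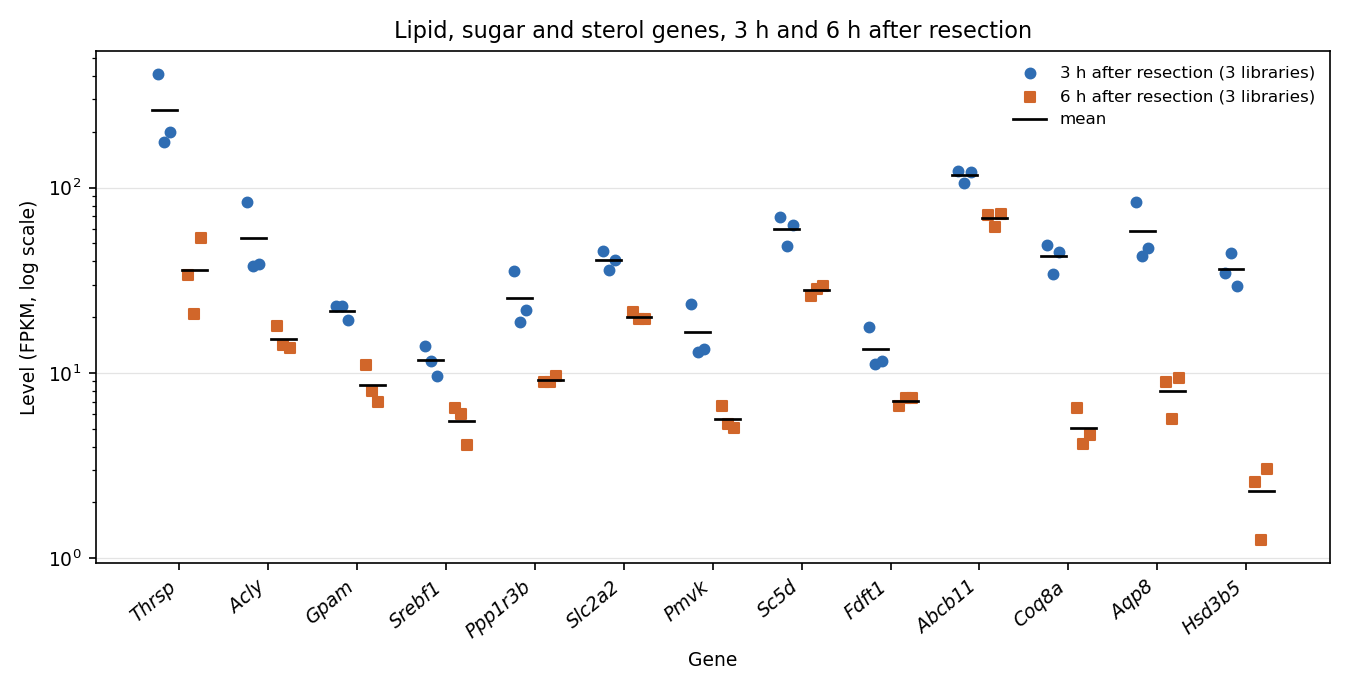
FPKM on a log axis for 13 genes of lipid, sugar, sterol and hepatocyte metabolism in the 3 libraries at 3 h (circles) and the 3 at 6 h (squares), with means as black bars. Each gene is lower in all 3 of the 6 h libraries, and for Thrsp, Acly and Aqp8 the highest 3 h library is replicate 1. For Thrsp, Coq8a, Aqp8 and Hsd3b5 the naming rule required lack of overlap.

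Sterol genes fell in part. Of 25 tested genes of cholesterol synthesis, 10 were lower and 0 higher, with a median of -0.30. For 0 higher the unadjusted count, DESeq2 and limma gave 0 too. Pmvk, phosphomevalonate kinase, read 23.6, 13 and 13.4 FPKM at 3 h and 6.60, 5.30 and 5.03 FPKM at 6 h (log2 difference of -1.56 ± 0.24 SE with edgeR adjusted p = 0.0044). Sc5d, a late desaturase, read 69.2, 48.4 and 62.8 FPKM at 3 h and 26.1, 28.3 and 29.3 FPKM at 6 h (log2 difference of -1.10 ± 0.15 SE with edgeR adjusted p = 0.0026), and Fdft1, squalene synthase, 17.7, 11.1 and 11.6 FPKM at 3 h and 6.60, 7.29 and 7.28 FPKM at 6 h (log2 difference of -0.93 ± 0.18 SE with edgeR adjusted p = 0.011), the last overlapping the abundant Ctsb. Insig1, a sensor and target of the same pathway, was not called (18.8, 19.0 and 14.7 FPKM at 3 h and 17.2, 23.0 and 20.8 FPKM at 6 h). The count was 4 without 3 h replicate 1, 5 without 6 h replicate 3 and 6 without 6 h replicate 1 or 6 h replicate 2. Of 25 tested genes of bile acid synthesis and transport, 8 were lower and 0 higher, and the median was -0.42 (1 higher at an unadjusted p under 0.05, 0 with DESeq2 or limma). Abcb11, the canalicular bile salt export pump, fell from 123, 107 and 121 to 71.3, 61.5 and 72.1 FPKM (log2 difference of -0.77 ± 0.13 SE with edgeR adjusted p = 0.0058). Klb, the co-receptor through which intestinal FGF restrains bile acid synthesis, fell from 2.82, 2.53 and 3.29 to 1.65, 1.28 and 0.907 FPKM (log2 difference of -1.16 ± 0.22 SE with edgeR adjusted p = 0.01). Abcg8, which exports sterol into bile, fell by 1.03 on the log2 scale and overlaps its partner gene Abcg5. Cyp7a1, the rate-limiting enzyme, was under the level for testing, at 2.01, 0.71 and 2.44 FPKM at 3 h and 0.37, 0.22 and 0.12 FPKM at 6 h. The bile acid count was 3 without 3 h replicate 1, 3 h replicate 3 or 6 h replicate 3, 4 without 6 h replicate 2 and 5 without 6 h replicate 1, and 14 with DESeq2 or with scaling by library totals.

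Amino acid breakdown was lower at 10 of 46 tested genes and higher at 2, with a median of -0.21. Prodh, proline dehydrogenase, read 26.9, 17.9 and 23.4 FPKM at 3 h and 12.2, 12.2 and 9.37 FPKM at 6 h (log2 difference of -1.01 ± 0.18 SE with edgeR adjusted p = 0.0069) and overlaps Dgcr6. Bckdha, a subunit of the branched-chain ketoacid dehydrogenase, fell from 27.2, 26.0 and 29.4 to 17.2, 18.1 and 14.4 FPKM (log2 difference of -0.73 ± 0.12 SE with edgeR adjusted p = 0.0063). Mat1a, which makes the liver's S-adenosylmethionine, went the other way, 1464, 1354 and 1843 FPKM at 3 h and 2872, 2899 and 2564 FPKM at 6 h (log2 difference of 0.84 ± 0.15 SE with edgeR adjusted p = 0.0076). Of 18 tested amino acid transporters 2 were lower by edgeR and 0 higher (2 higher at an unadjusted p under 0.05, 0 with DESeq2 or limma). They were Slc38a4, 193, 227 and 251 FPKM at 3 h and 117, 115 and 137 FPKM at 6 h (log2 difference of -0.86 ± 0.14 SE with edgeR adjusted p = 0.0051), and Slc6a13, which fell by 0.76. Without 3 h replicate 1 or 6 h replicate 2 the breakdown list had 3 genes lower, and it had 4 without 3 h replicate 3, 5 without 6 h replicate 3 and 6 without 6 h replicate 1.

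Several of the largest falls were in single liver genes outside the lists. Coq8a, needed for coenzyme Q synthesis, read 49.3, 34.1 and 44.9 FPKM at 3 h and 6.45, 4.11 and 4.6 FPKM at 6 h (log2 difference of -3.08 ± 0.21 SE with edgeR adjusted p = 0.00014; GRCm38 chr1:180165238-180199602, minus strand) and overlaps Cdc42bpa. Aqp8, a water channel of hepatocytes, read 84.1, 42.7 and 47.4 FPKM at 3 h and 8.97, 5.67 and 9.36 FPKM at 6 h (log2 difference of -2.86 ± 0.29 SE with edgeR adjusted p = 0.00082). Upp2, a uridine phosphorylase of liver, read 51.1, 39.5 and 54.3 FPKM at 3 h and 6.85, 5.37 and 11.2 FPKM at 6 h (log2 difference of -2.62 ± 0.26 SE with edgeR adjusted p = 0.00071). In each of them the highest 6 h liver was below the lowest 3 h liver, but the rule that named them required this. Hes6, a relative of the Notch target repressors, fell from 30.2, 16.7 and 15.9 to 4.39, 3.02 and 3.34 FPKM, and Fbf1, a centriole protein, from 25.4, 41.3 and 29.8 to 9.52, 4.65 and 5.33 FPKM (log2 difference of -2.55 ± 0.27 SE with edgeR adjusted p = 0.001, and log2 difference of -2.31 ± 0.28 SE with edgeR adjusted p = 0.0016).

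Of 31 tested major urinary protein and growth hormone target genes, 3 were higher and 6 lower, with a median log2 difference of 0.19 and 17 members above 0. Without 3 h replicate 1, 1 was higher and 3 lower, and 1 was higher without 3 h replicate 3 or 6 h replicate 3. Ghr, the receptor, read 45.9, 45.3 and 49.9 FPKM at 3 h and 30.7, 25.5 and 30.3 FPKM at 6 h (log2 difference of -0.70 ± 0.13 SE with edgeR adjusted p = 0.0077). Igfals, which holds IGF1 in plasma, read 38.0, 38.9 and 30.2 FPKM at 3 h and 17.3, 7.99 and 7.46 FPKM at 6 h (log2 difference of -1.71 ± 0.29 SE with edgeR adjusted p = 0.0062). Igfbp2, another IGF carrier, fell from 187, 178 and 275 to 106, 124 and 88.5 FPKM (log2 difference of -1.0 ± 0.19 SE with edgeR adjusted p = 0.0093). Hsd3b5, a steroid dehydrogenase of male liver, had a wider gap than these, 34.6, 44.5 and 29.4 FPKM at 3 h and 2.58, 1.26 and 3.04 FPKM at 6 h (log2 difference of -3.99 ± 0.28 SE with edgeR adjusted p = 0.00017). Major urinary proteins, near-identical pheromone carriers whose reads cannot be assigned with certainty, varied widely between livers of one time. Mup10 was at 573 FPKM in 3 h replicate 1 and at 1.35 to 2.20 FPKM in the other 5, and its log2 difference of -6.81 was -0.27 without that library, with the call lost there and without any one 6 h library. Mup8 read 1.5, 2.54 and 2.82 FPKM at 3 h and 177, 122 and 3.36 FPKM at 6 h (log2 difference of 5.47 ± 1.09 SE with edgeR adjusted p = 0.012), so 6 h replicate 3 stayed near the 3 h level, and the log2 difference was 4.79 without 6 h replicate 1. Mup19 read 13.3, 7.86 and 4.84 FPKM at 3 h and 212, 6.22 and 593 FPKM at 6 h, with overlap, and its log2 difference of 4.96 was not called without 3 h replicate 1 (5.42), 3 h replicate 2 (4.89), 3 h replicate 3 (4.66) or 6 h replicate 3 (3.64).

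Some nuclear receptors that govern drug and energy metabolism were lower. Of 24 tested hepatocyte transcription factors 4 were lower, all of them nuclear receptors, and 0 higher (2 higher at an unadjusted p under 0.05, 0 with DESeq2 or limma). Without 6 h replicate 2, 2 were lower. Nr1i3 (CAR), a sensor of foreign compounds, read 3.58, 3.88 and 3.71 FPKM at 3 h and 2.21, 1.69 and 1.17 FPKM at 6 h (log2 difference of -1.13 ± 0.21 SE with edgeR adjusted p = 0.0093) and overlaps Tomm40l. Its relative Nr1i2 (PXR) fell by 0.78, a call lost without 6 h replicate 2 (-0.74). Esrra and Ppara were the others. Esrra (-1.23) was lost without 3 h replicate 1 (-1.08) or 6 h replicate 2 (-1.21), and Ppara (-0.91) without any one library other than 3 h replicate 1, at -1.05 to -0.52. Of 33 tested genes of cytochrome P450 drug metabolism, 7 were lower and 1 higher. Cyp26a1, which degrades retinoic acid, read 9.60, 3.05 and 8.80 FPKM at 3 h and 0.951, 0.439 and 1.83 FPKM at 6 h (log2 difference of -2.74 ± 0.52 SE with edgeR adjusted p = 0.0091, and -3.37 without 6 h replicate 3). Cyp3a25 fell from 199.8, 186 and 247 to 109.7, 135 and 129 FPKM (log2 difference of -0.75 ± 0.15 SE with edgeR adjusted p = 0.01). The P450 count was 3 or 4 without any one library other than 3 h replicate 2, and 11 without that one. Clock genes were mixed, with 1 higher and 2 lower (Hlf, -0.48, among them) of 16 tested. None was lower without 3 h replicate 1 or 6 h replicate 2 (Hlf at -0.46 and -0.50), and Hlf was lost without 6 h replicate 1 too (-0.48). Nr1d1 (REV-ERB alpha) read 5.49, 1.22 and 7.87 FPKM at 3 h and 16.1, 22.8 and 13.7 FPKM at 6 h (log2 difference of 1.86 ± 0.48 SE with edgeR adjusted p = 0.031), overlaps Thra, and lost its call without 3 h replicate 1 (1.98) or any one 6 h library (1.62 to 2.01), while Arntl (BMAL1) overlapped between the times (3.62, 3.81 and 3.16 FPKM at 3 h and 3.10, 2.80 and 3.75 FPKM at 6 h).

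Of 26 tested growth factor signalling genes 0 were higher and 4 lower (2 higher at an unadjusted p under 0.05, 1 with DESeq2, 0 with limma), and Hgf was not called (1.03, 1.82 and 1.39 FPKM at 3 h and 0.938, 1.02 and 1.43 FPKM at 6 h). Of 30 tested TGF-beta, activin and BMP genes 4 were higher and 1 lower. Tgfb1 fell from 1.92, 1.99 and 1.41 to 0.78, 0.978 and 0.672 FPKM (log2 difference of -1.12 ± 0.23 SE with edgeR adjusted p = 0.013), a call lost without 3 h replicate 1 (-1.05). Fst, which binds activin, rose by 1.08 with a call that held only without 3 h replicate 1, at 0.86 to 1.14 without each of the others. For this list 1 gene was called higher without any one of 3 h replicate 3, 6 h replicate 2 and 6 h replicate 3, and 2 without 3 h replicate 1.

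Some markers of the other cells of the liver were lower at 6 h, and edgeR called none of the Kupffer, endothelial, stellate or myeloid markers higher. At an unadjusted p under 0.05, 1 Kupffer marker was higher and 0 of the other 3 lists, and DESeq2 and limma called 0. In whole tissue, fewer cells of a type and less RNA per cell cannot be told apart. Of 12 tested Kupffer cell markers 4 were lower, and the 13 markers summed to 270 to 300 FPKM at 3 h and 169 to 241 FPKM at 6 h. Of 20 tested liver endothelial markers 5 were lower, with sums of 94.9 to 124 and 70.7 to 82.8 FPKM. Stellate cell and fibroblast markers had 3 lower of 18 (119 to 159 and 94.4 to 99.8 FPKM). Monocyte and macrophage markers had 2 lower of 7 (196 to 219 and 160 to 176 FPKM). The summed levels of the 2 times did not overlap for any of these 4 lists. C1qc, a complement chain made by macrophages, read 15.3, 15.1 and 14.5 FPKM at 3 h and 10.1, 8.60 and 7.32 FPKM at 6 h (log2 difference of -0.78 ± 0.14 SE with edgeR adjusted p = 0.0083). Lyz2, a lysozyme of myeloid cells, fell from 37.5, 35.5 and 28.0 to 19.3, 20.4 and 17.8 FPKM (log2 difference of -0.81 ± 0.14 SE with edgeR adjusted p = 0.0069). Dnase1l3, a nuclease of sinusoidal endothelium and macrophages, fell from 6.67, 8.07 and 5.79 to 4.09, 4.01 and 3.29 FPKM (log2 difference of -0.85 ± 0.16 SE with edgeR adjusted p = 0.0091), and Colec11, a stellate cell collectin, from 16.2, 16.9 and 13.8 to 8.67, 8.57 and 8.13 FPKM (log2 difference of -0.88 ± 0.14 SE with edgeR adjusted p = 0.0041). Endothelial calls fell to 1 without 3 h replicate 2, 6 h replicate 1 or 6 h replicate 2 and to 2 without 3 h replicate 1 or 6 h replicate 3. Kupffer calls fell to 1 without 6 h replicate 2 and to 2 without 3 h replicate 1, and stellate calls rose to 7 without 3 h replicate 3.

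Red blood cell markers fell as well, 4 of 6 tested, with sums of 153 to 178 FPKM at 3 h and 91.1 to 119 FPKM at 6 h. Hba-a1, an alpha-globin gene, read 44.8, 38.7 and 43.4 FPKM at 3 h and 21.1, 21.7 and 21.8 FPKM at 6 h (log2 difference of -0.97 ± 0.12 SE with edgeR adjusted p = 0.0016), and its near-identical copy Hba-a2 fell by 1.36. The count was 2 without 3 h replicate 1 or 6 h replicate 2. Neutrophil markers were low: 4 of 18 were tested, none was called by edgeR, DESeq2 or limma or at an unadjusted p under 0.05, the sum was 14.8 to 16.2 FPKM at 3 h and 10.6 to 22 at 6 h, and Ly6g had 1 count over the 3 h livers and 2 over the 6 h livers. T and NK cell markers were all under the level for testing. The part that these markers, nonparenchymal, red cell and plasma cell alike, or the share of mitochondrial reads, played in the other differences was not tested.

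**Figure D5:**
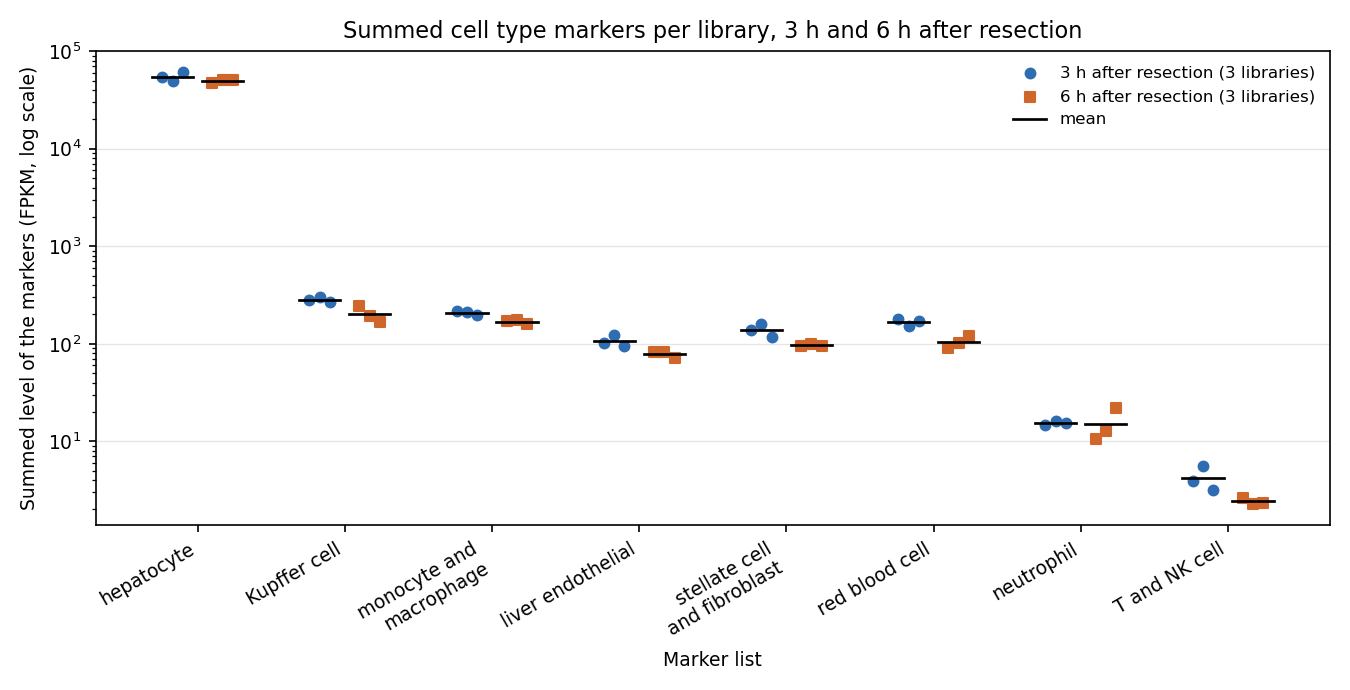
Summed FPKM of 8 cell type marker lists on a log axis, per library, at 3 h (circles) and 6 h (squares), with means as black bars. The 2 times do not overlap for Kupffer cell, monocyte and macrophage, endothelial, stellate cell, red blood cell and T and NK cell lists, and they overlap for hepatocyte and neutrophil lists.

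Of 46 tested nuclear genes of the respiratory chain none was called by edgeR (9 lower at an unadjusted p under 0.05, 2 lower with DESeq2, 0 with limma), with a median of -0.19, and 7 were lower without 3 h replicate 2. Of 42 tested splicing factors 3 were higher (Snrpd1, 0.68, Srsf1, 0.59, and Srsf3, 0.46), 0 without 3 h replicate 1 and 1 without any one of 3 h replicate 2, 3 h replicate 3, 6 h replicate 2 and 6 h replicate 3. Of 28 tested NRF2 antioxidant genes 3 were lower, Tkt (-0.47) and both subunits of glutamate-cysteine ligase, Gclc (-0.64) and Gclm (-0.54). Gclc was lost without any one library other than 6 h replicate 3 and Gclm without 3 h replicate 3 too, and 0 were lower without 3 h replicate 1, 6 h replicate 1 or 6 h replicate 2. Of 34 tested interferon-stimulated genes 1 was higher (Isg20, 1.3, lost without 3 h replicate 1, 3 h replicate 3, 6 h replicate 2 or 6 h replicate 3) and 1 lower (Bst2, -0.58, lost without 3 h replicate 1, 6 h replicate 2 or 6 h replicate 3), and 4 were lower without 6 h replicate 1. Of 28 tested complement genes 2 were higher (C3, 0.59, and C4bp, 0.52) and 7 lower. The 7 included C1qa (-0.86) and C1qc (-0.78), which are also counted among the Kupffer cell markers, and Cfd (-2.35), which overlapped between the times. Cfd lost its call without any one library other than 3 h replicate 3, and C1qa without any one other than 6 h replicate 1. Without 3 h replicate 1 or 6 h replicate 2 there were 0 higher and 1 lower, 0 were higher without 3 h replicate 3 or 6 h replicate 1 and 1 without 6 h replicate 3, and 3 or 4 were lower without any one of the other 4 libraries.

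Levels at 12 h after resection, from 3 other libraries and not tested here, are set beside these differences as a description. The genes were called from the same 3 h and 6 h means, so selection alone would put some 12 h means between them. No such counts are given for uncalled genes. Of the 700 genes higher at 6 h, 414 had a 12 h mean between the 3 h and 6 h means, 192 lay above both and 94 below both. Of the 746 lower at 6 h, 269 lay between, 348 below both and 129 above both. Of the 31 secretory route genes that rose, 23 lay between at 12 h, as did 11 of the 17 ER chaperone genes and 19 of the 25 acute phase genes. Arfgap3 was at 3.88 ± 0.789 FPKM (SD, n = 3) at 12 h, Syvn1 at 19.8 ± 3.78 FPKM (SD, n = 3) and Hspa5 at 387 ± 75.8 FPKM (SD, n = 3). All 10 amino acid breakdown genes that fell were lower still on average at 12 h. Thrsp was at 18.2 ± 6.54 FPKM (SD, n = 3) at that time and Coq8a at 2.74 ± 1.17 FPKM (SD, n = 3), each below its 6 h mean, whereas Slc2a2 (44.4 ± 7.99 FPKM (SD, n = 3)) and Hsd3b5 (36.3 ± 24.2 FPKM (SD, n = 3)) had 12 h means within the range of the 3 h livers.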

How the data were processed

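Whole-liver poly(A) RNA was extracted with TRIzol and sequenced from NEBNext Ultra libraries, per the labels' protocols. Named in the submitters' processing notes, without roles or order, are featureCounts 1.5.0-p3, HISAT2 2.0.5, DESeq2 1.20.0, CASAVA 1.8, fastp and the builds mm10 and GRCm38. The deposited counts are whole reads per gene, not normalized. The deposited FPKM are, from the values, each count over the gene's length and a scaled library size. The strand of counting is not given in the sources used here.

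Genes at or above 1 FPKM in at least 3 of 6 libraries entered the edgeR 4.0.16 quasi-likelihood test on counts (TMM scaling, R 4.3.3, two-sided, Benjamini-Hochberg over all tested genes, called under 0.05). SE is the log2 difference divided by the square root of F. In simulated data for this comparison on 10336 genes, 43 of 50 genes changed 2-fold and 12 of 50 changed 1.5-fold were called, and 11 of 10136 unchanged. There few genes were changed, none of them with low counts, and no library was made an outlier. Rates in the real data may therefore differ. The biological coefficient of variation was 17.2%.

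Lists are described by counts and medians. Members, lists and the gene-naming rule were chosen with earlier results of these data known. The rule takes the 10 largest rises and falls among called protein-coding genes with 5 FPKM or more and no overlap, up to 4 called members per list (2 members where none was called), and 32 chosen genes. For the largest rises and falls, lack of overlap was thus a condition of being named and not a separate result. Other members are named to spell out counts. Alternatives were RLE scaling, library totals, no filter, DESeq2 1.42.0, limma 3.58.1 on log2(FPKM + 1) and log2(FPKM + 0.1), fits on 9 and 12 libraries, a replicate block, and each library left out. Promoters came from RefSeq (GRCm38.p6) for 27025 genes. Some genes the rule names are not reported here.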

Additional observations from a re-analysis of the deposited data

How the results depend on the processing

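No gene called in the main test changed sign under any of the 15 alternatives. The main counts were 700 higher and 746 lower. Scaling by library totals gave 433 and 1141, no filter on low values 1074 and 1197 of 25113 genes, and the fit on 12 libraries 496 and 460. RLE scaling (692 and 751), DESeq2 (823 and 971), the fit on the 9 resected libraries (872 and 879) and limma on log2(FPKM + 1) (513 and 550) and log2(FPKM + 0.1) (493 and 533) stayed within 1.5 times. With 1 library left out, the count higher was 296 to 580 and the count lower 326 to 745. The replicate block gave 692 and 776. Replicate numbers are shared by the 2 times in the labels. Same-numbered libraries correlated at 0.088, 0.077 and 0.147 in their deviations from the group means, each best with its own number. Libraries of unlike number correlated at -0.090 to 0.010. The labels name no pairs, and the main test treated none as such. Whether the numbers mark a shared batch or pair was not tested. Of 152 named genes that were called, 80 kept their call without each library in turn and 72 lost it without at least 1. Uncalled genes changed sign with a library left out: Atf3 ranged from -0.33 to 0.061 (3 h replicate 2 left out), Fos from -1.18 to 0.59 (3 h replicate 1) and S100a9 from -0.57 to 0.12 (6 h replicate 2), with 0.039 without 3 h replicate 2 and 0.032 without 6 h replicate 1. Depth limits genes under 1 FPKM, such as Il6, and 3 libraries a group limit differences under 2-fold. The causes of these shifts were not tested.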
